A study of Rattus norvegicus with 24 samples.

Results

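The genes described here are those of histamine and the mast cell: the histamine receptors Hrh1, Hrh2, Hrh3 and Hrh4, the histamine-forming enzyme Hdc, the granule proteases Mcpt1, Cma1, Cpa3 and Tpsab1, and the growth factor receptor Kit. Every array probe whose transcript accession matched a rat RefSeq transcript of these symbols was taken. That gave 10 probes for 9 of the 10 genes, among 30367 probes in all. Hrh3 had 2 probes, each of the other 8 genes had 1, and for Hrh2 no probe was named, so it was not analysed here. The list was chosen by signals already seen in these arrays: the group levels of the Hrh3 probes, and that of Mcpt1 in Jiaji against IRI. The group differences of Hrh3 and Mcpt1 are therefore given as a description, with no test.

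RNA of rat myocardium was measured on 24 single-colour arrays in 6 groups of 4 rats, with 2 males and 2 females in every group. The sham group (DZ) is not listed among the ligated groups, and the IRI group (MX) had myocardial ischaemia-reperfusion injury made by ligating the left anterior descending coronary artery. The Jiaji (JJ), Neiguan (NG), Yanglingquan (YL) and Quchi (QC) groups were needled at the acupoint of that name for 7 days before the same injury. All injured groups thus share the ligation, and no group was needled without injury. Strain, age, and how long hearts were reperfused before sampling, could not be taken from the labels. The comparisons ask how injury, and needling at each acupoint before injury, go with the level of these transcripts.

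Mast cells are resident immune cells that sit along vessels and nerves of the heart. They store histamine, chymases, tryptases and carboxypeptidase A3 in granules and release them when IgE receptors, complement or other signals activate them, and they depend on signals through the receptor Kit. Histamine acts on cells through its receptors, which couple to different G proteins: H1 and H2 receptors act on vessels and heart muscle, H3 receptors on nerve endings restrain transmitter release, and H4 receptors are found mainly on blood-derived immune cells.

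A level is the log2 signal of a probe minus the 75th percentile of its array, so 0 marks that percentile. Differences are log2 values and are given with a standard error (SE). Brightness depends on the probe as well as on the transcript, so no probe's level is set against that of another gene. Adjusted p-values come from limma over 25149 probes that were well above background on every array of at least 1 group, and "called" means an adjusted p under 0.05. Yanglingquan arrays had the fewest probes well above background, 71.1 to 76.3% of them, against 75.6 to 88.7% on the arrays of the other groups; its part in the Yanglingquan results was not tested. Each group had a scan of its own, apart from Quchi replicate 1, which was scanned separately. Scan, and any slide effect that goes with it, therefore cannot be told apart from group. The sham and IRI arrays were scanned on the same day, Quchi replicate 1 on a day of its own and the other acupoint arrays on a further day. Scan day thus cannot be told apart from needling either. Markers of heart muscle cells were bright on all arrays of the labelled tissue, with a mean level over 9 genes between 6.12 and 6.95. These markers were higher in Yanglingquan than in IRI, where 7 of 9 were called higher, with a median difference of 0.56. The scaling moves the balance of calls: Jiaji against IRI had 2642 probes higher and 426 lower here, but 1851 and 1201 after quantile normalization. Yanglingquan against IRI had 1237 higher and 2525 lower, but 2016 and 1929 after median scaling, and median scaling set the median probe at -0.18 in Jiaji against IRI in place of 0.03.

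**Figure D1:**
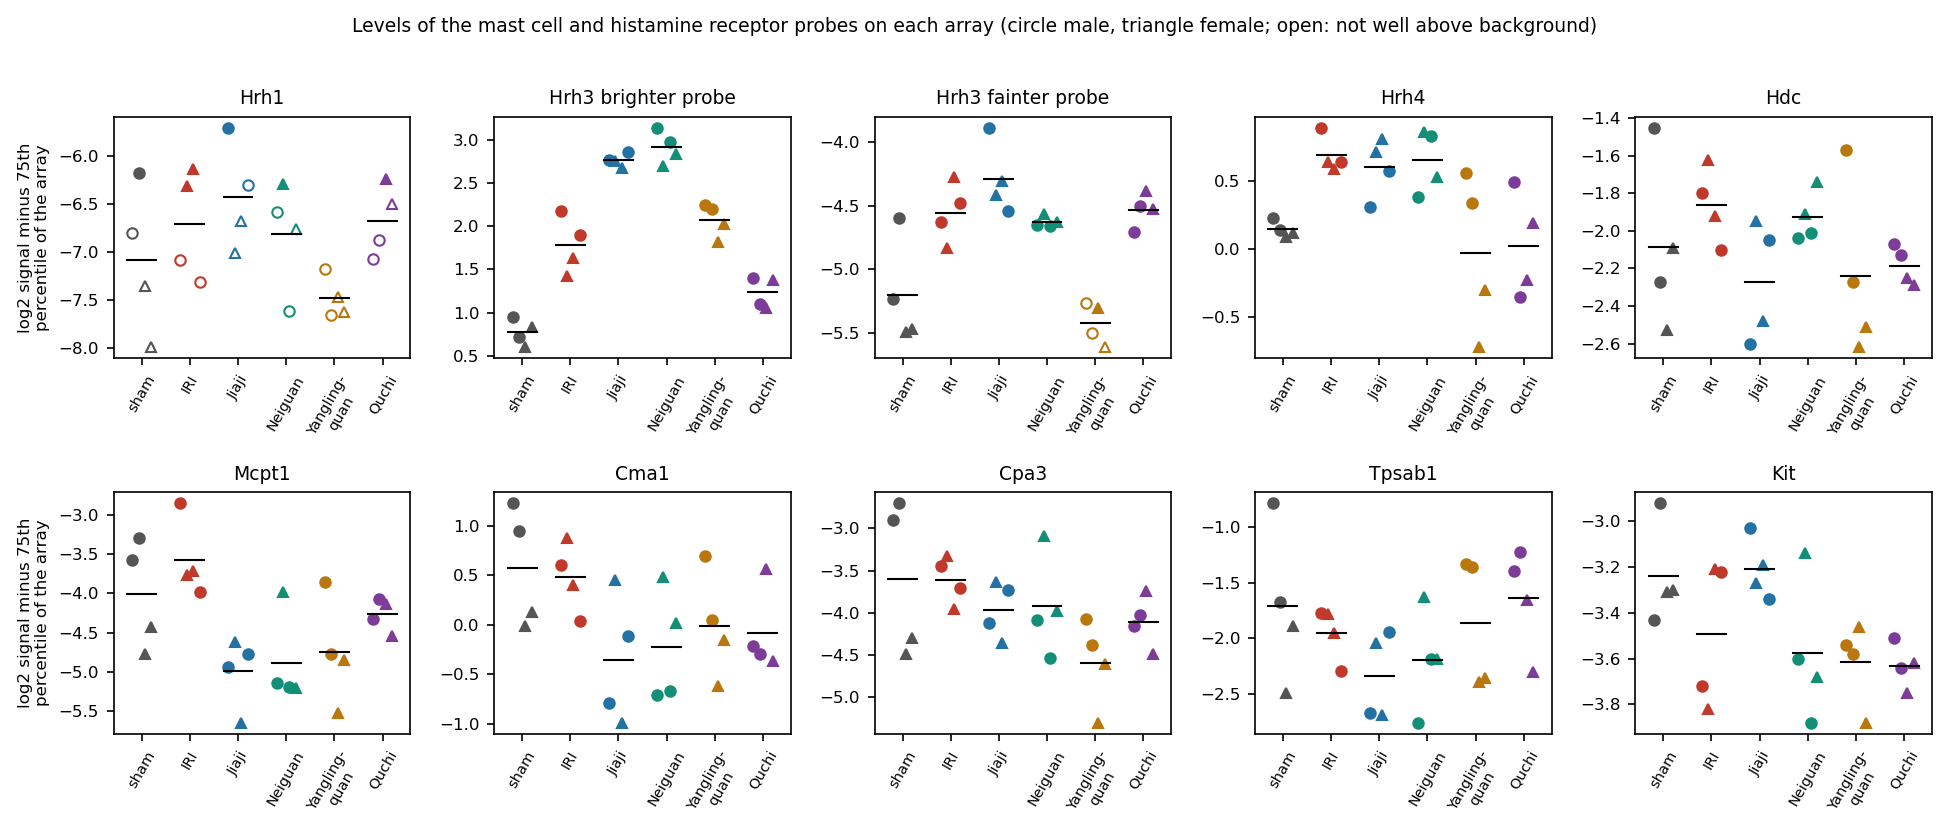
Level of each of the 10 probes (log2 signal minus the 75th percentile of the array, 1 panel per probe, each with its own axis) on the 24 arrays by group; circles are males, triangles females, open symbols were not well above background, and bars are group means. The brighter Hrh3 probe steps up from sham (0.60 to 0.95) to Jiaji and Neiguan (2.67 to 3.14), Mcpt1 is lower in Jiaji and Neiguan than in IRI, and Tpsab1 overlaps between IRI and every acupoint group.

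Of the receptors, Hrh1, the H1 receptor that couples to phospholipase C, could not be followed. Its probe was well above background on 6 of 24 arrays and on 0 of 4 Yanglingquan arrays, and it did not pass the filter. Its levels ran from -7.99 to -5.70.

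Hrh3 encodes the H3 receptor, which couples to inhibitory G proteins and is known in the heart from sympathetic nerve endings. Both of its probes carry the same RefSeq transcript in the array files, and they are called the brighter and the fainter probe here. For the brighter probe the sham arrays read 0.95, 0.72, 0.60 and 0.83, and the IRI arrays 2.17, 1.43, 1.63 and 1.90. The 4 Jiaji arrays read 2.76, 2.75, 2.67 and 2.86, and the 4 Neiguan arrays 3.14, 2.70, 2.97 and 2.84. Yanglingquan read 2.24, 2.20, 1.82 and 2.02, and Quchi between 1.06 and 1.40. In order, the group means were 0.77 in sham, 1.24 in Quchi, 1.78 in IRI, 2.07 in Yanglingquan, 2.76 in Jiaji and 2.91 in Neiguan (SD 0.08 to 0.32, n = 4). Jiaji and Neiguan overlapped, as did IRI and Yanglingquan; every other pair of neighbours in this order was separate, though Quchi and IRI only narrowly, with 1.40 against 1.43 as their nearest arrays. Groups accounted for 95.2% of the variance of this probe over the 24 arrays.

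On this probe IRI was 1.01 ± 0.12 (SE) above sham, which is 2.01-fold. Against IRI, Jiaji was 0.98 ± 0.12 higher and Neiguan 1.13 ± 0.12 higher, with Quchi 0.54 lower (difference -0.54 ± 0.12) and Yanglingquan 0.29 ± 0.12 higher. These 4 comparisons share the IRI arrays. Against sham, whose arrays are likewise shared, the acupoint groups were 1.99 (Jiaji), 2.14 (Neiguan), 1.30 (Yanglingquan) and 0.46 (Quchi) higher. Every array of the 5 injured groups lay above every sham array.

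The fainter Hrh3 probe did not follow that order. Its levels were -5.23, -4.60, -5.49 and -5.47 in sham, -4.63, -4.83, -4.28 and -4.48 in IRI, and -3.89, -4.42, -4.31 and -4.54 in Jiaji. Neiguan read -4.65, -4.57, -4.66 and -4.63, and Quchi -4.71, -4.50, -4.39 and -4.53. In Yanglingquan it read -5.26, -5.50, -5.30 and -5.61, and it was well above background on 1 of those 4 arrays. Thus IRI and sham overlapped through sham replicate 2, Yanglingquan lay below every IRI array, and Jiaji, Neiguan and Quchi overlapped IRI. The fitted differences were 0.64 ± 0.17 for IRI against sham, and against IRI 0.27 (Jiaji), -0.07 (Neiguan), -0.86 (Yanglingquan) and 0.02 (Quchi), each with an SE of 0.17. These sizes depend on the background correction and scaling. After normexp background correction and quantile normalization, IRI differed from sham by 0.14 and Yanglingquan from IRI by -0.26, and after quantile normalization alone Jiaji differed from IRI by -0.05. Where the brighter probe was more than 1 log2 unit higher in Neiguan than in IRI, the fainter probe differed by -0.07. The Yanglingquan value of the fainter probe rests mostly on readings that were not well above background, so no direction is read from it.

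Since both probes are read on the same array, the gap between them does not depend on a scaling by a constant. The gap was 5.97 ± 0.45 (SD, n = 4) in sham, 6.34 ± 0.37 in IRI, 7.05 ± 0.32 in Jiaji, 7.54 ± 0.22 in Neiguan, 7.49 ± 0.25 in Yanglingquan and 5.77 ± 0.30 in Quchi. Every Neiguan and Yanglingquan array, from 7.13 up, had a wider gap than every sham, IRI and Quchi array, which reached 6.80 at most; in Yanglingquan the gap rests on the same dim readings of the fainter probe. Within groups the deviations of the probes did not rise together (Pearson r = -0.32, permutation p = 0.184; Spearman rho = -0.29, permutation p = 0.22; 24 arrays), and without the 2 arrays farthest from the median r was -0.34. Over the 6 group means r was 0.41, given as a description. The probes thus changed unequally in Neiguan against IRI; which of them follows the Hrh3 transcript was not tested, and the probe sequences were not used here.

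**Figure D2:**
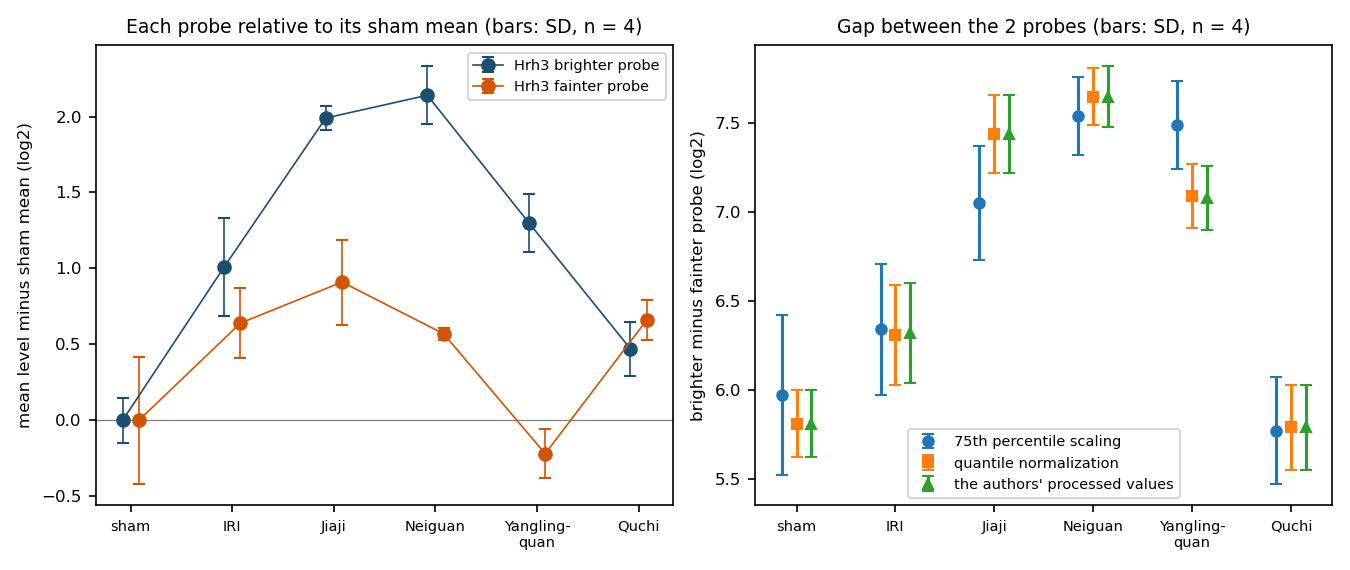
Left, mean of each Hrh3 probe minus its own sham mean (log2) by group with SD bars (n = 4 arrays); right, the gap between the probes (log2, mean and SD) under 3 ways of scaling the arrays. The brighter probe peaks in Jiaji and Neiguan while the fainter lies near the sham mean in Yanglingquan, where 3 of its 4 readings were not well above background, and the gap is wider in Jiaji, Neiguan and Yanglingquan than in sham and Quchi under all 3 scalings.

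The genes whose level over the 24 arrays was most like that of the brighter Hrh3 probe, among 12893 other named genes, were Zfp36l2 (r = 0.99), Scaf1 (r = 0.98) and Rtn4rl2 (r = 0.98). Zfp36l2 encodes an RNA-binding protein that promotes decay of AU-rich mRNAs, and Rtn4rl2 a Nogo receptor family protein. Zfp36l2 ran from -0.04 ± 0.07 (SD) in sham through 0.56 ± 0.23 in IRI to 1.34 ± 0.11 in Jiaji and 1.39 ± 0.17 in Neiguan, with 0.80 ± 0.05 in Yanglingquan and 0.28 ± 0.19 in Quchi. In all, 87 genes had an r above 0.9 to this probe, so its group order is not peculiar to it. These correlations share the arrays and groups and carry no p.

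Hrh4 encodes the H4 receptor of mast cells, eosinophils and other leukocytes. Sham arrays read 0.23, 0.14, 0.09 and 0.12, and IRI arrays 0.89, 0.64, 0.59 and 0.64. Yanglingquan read 0.56, 0.34, -0.72 and -0.30, and Quchi 0.49, -0.35, -0.23 and 0.19. Every IRI array was above every sham array and above every array of those 2 acupoint groups. Hrh4 fell in Yanglingquan against IRI by 0.72 ± 0.22 (1.65-fold; adjusted p = 0.029). That call rested on few arrays: the adjusted p was 0.111 without Yanglingquan replicate 3, 0.0798 without Yanglingquan replicate 4, and 0.075, 0.0575 and 0.06 without IRI replicates 1, 2 and 3, with differences of -0.50 to -0.73.

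IRI exceeded sham in Hrh4 by 0.54 ± 0.22 (adjusted p = 0.14), and Quchi differed from IRI by -0.66 ± 0.22 (adjusted p = 0.0839), neither past the threshold. Without Quchi replicate 1, the array scanned apart, the Quchi difference was -0.80 (adjusted p = 0.0384), and without Yanglingquan replicate 3 its adjusted p was 0.0477. Those were the only 2 of 24 single-array omissions to gain the call, and others gave an adjusted p up to 0.333. With scan as a random block the adjusted p of the Quchi difference in limma was 0.0356, and with array weights 0.00684. In 11 of 13 such settings it stayed uncalled, with adjusted p up to 0.165. Scan coincides with group apart from Quchi replicate 1, and the fitted scan block correlation was -0.063. Calls gained with this block, here and below, are therefore not read as added support. Jiaji, at 0.31, 0.71, 0.81 and 0.57, and Neiguan, at 0.38, 0.86, 0.83 and 0.53, overlapped IRI, with differences of -0.09 and -0.04 (adjusted p = 0.859 and 0.94). Among the acupoint groups Hrh4 differed in the moderated F test (adjusted p = 0.0184), a test that 43.2% of all probes passed. In Yanglingquan the 2 males averaged 0.45 and the 2 females -0.51; in limma the difference of that comparison between sexes was -0.82 (adjusted p = 0.685), which did not pass.

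Hdc, histidine decarboxylase, makes histamine from histidine and is the only enzyme of that synthesis. Its group means lay between -2.27 in Jiaji and -1.86 in IRI, and its arrays overlapped between every acupoint group and IRI. IRI differed from sham by 0.23 ± 0.22 (adjusted p = 0.628), and the differences from IRI were -0.41 (Jiaji), -0.06 (Neiguan), -0.38 (Yanglingquan) and -0.33 (Quchi), each with an SE of 0.22 and adjusted p of 0.246 to 0.897. Groups accounted for 24.4% of its variance, the lowest share among the 10 probes.

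The granule proteases are the products by which mast cells are recognised. Mcpt1 and Cma1 encode chymases, Cpa3 the carboxypeptidase A that trims peptides beside them, and Tpsab1 a tryptase. Mcpt1 and Cma1 lie on chromosome 15 in a cluster of related proteases that also holds Mcpt4, Mcpt8, Mcpt9 and Mcpt10. Whether the Mcpt1 probe also binds transcripts of these relatives was not tested. These 4 genes and Hdc, described further on as varying together, are shown with the sequence around their RefSeq start (250 bases before to 50 after, GRCr8, gene strand). Whether these sequences bear on that variation was not tested. Capitals mark matches to 3 motifs, each searched on both strands, and no match overlaps another. The motif of GATA factors was taken as AGATAA or TGATAA, with AGATAG or TGATAG as its other forms. The E-box that MITF binds was taken as CATGTG, its reverse CACATG, and the palindrome CACGTG. The AP-1 motif was taken as TGACTCA or TGAGTCA. The windows are chr2:104673188-104673487 (minus strand) for Cpa3, chr15:33390084-33390383 (minus strand) for Cma1, chr15:33841356-33841655 (plus strand) for Mcpt1, chr10:14867253-14867552 (minus strand) for Tpsab1 and chr3:134318655-134318954 (minus strand) for Hdc.
Cpa3: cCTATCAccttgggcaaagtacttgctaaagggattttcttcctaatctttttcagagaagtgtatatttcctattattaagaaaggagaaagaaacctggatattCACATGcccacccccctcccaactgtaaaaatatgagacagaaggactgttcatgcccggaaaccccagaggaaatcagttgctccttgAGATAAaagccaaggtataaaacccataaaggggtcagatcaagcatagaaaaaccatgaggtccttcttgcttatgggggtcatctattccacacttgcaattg
Cma1: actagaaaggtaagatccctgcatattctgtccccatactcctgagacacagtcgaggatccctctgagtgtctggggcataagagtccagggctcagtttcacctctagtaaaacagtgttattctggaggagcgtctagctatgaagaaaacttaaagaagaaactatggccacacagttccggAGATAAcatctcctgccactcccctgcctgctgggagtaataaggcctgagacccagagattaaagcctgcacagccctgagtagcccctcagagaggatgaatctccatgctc
Mcpt1: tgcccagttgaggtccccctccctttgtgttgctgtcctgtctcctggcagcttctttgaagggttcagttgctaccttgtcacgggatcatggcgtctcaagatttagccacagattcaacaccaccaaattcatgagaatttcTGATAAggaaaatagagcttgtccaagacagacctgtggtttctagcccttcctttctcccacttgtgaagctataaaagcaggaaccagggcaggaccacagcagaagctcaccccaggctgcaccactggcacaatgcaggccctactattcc
Tpsab1: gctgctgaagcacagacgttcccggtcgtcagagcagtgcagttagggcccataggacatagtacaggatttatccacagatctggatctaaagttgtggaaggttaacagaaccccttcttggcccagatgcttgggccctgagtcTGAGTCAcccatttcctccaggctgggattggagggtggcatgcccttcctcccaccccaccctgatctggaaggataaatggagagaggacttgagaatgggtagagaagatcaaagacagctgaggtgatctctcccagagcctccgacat
Hdc: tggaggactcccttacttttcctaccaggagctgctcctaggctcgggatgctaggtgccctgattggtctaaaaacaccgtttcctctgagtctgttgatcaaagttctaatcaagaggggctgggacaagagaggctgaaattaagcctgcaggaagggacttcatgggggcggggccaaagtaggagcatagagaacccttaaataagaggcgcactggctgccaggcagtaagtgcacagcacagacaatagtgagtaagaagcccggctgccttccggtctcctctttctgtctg

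GATA2 and MITF are known regulators of mast cell genes. In these windows Cpa3 held 2 GATA matches, 55 and 249 bases before the start, and an E-box match 144 bases before it. Cma1 held a GATA match 64 bases before its start, and Mcpt1 a GATA match 105 bases before. Tpsab1 held an AP-1 match 103 bases before its start, and the Hdc window held no match to the 3 motifs. Of 33469 RefSeq promoter windows of this length, 30.3% held a GATA match, 19.7% an E-box match and 4.63% an AP-1 match. A match describes letters only and is no evidence of binding.

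Mcpt1 was lower in Jiaji and Neiguan than in IRI on every array. IRI read -2.85, -3.77, -3.71 and -3.99, and Jiaji -4.94, -4.62, -5.65 and -4.77. Neiguan read -5.14, -3.99, -5.20 and -5.21, so that its replicate 2 stood level with the lowest IRI array to 2 decimals and just below it. Yanglingquan, at -3.85, -4.77, -5.53 and -4.85, overlapped IRI through its replicate 1, and Quchi, at -4.33, -4.07, -4.14 and -4.54, was below all IRI arrays. Sham, at -3.57, -3.29, -4.77 and -4.43, overlapped IRI. The differences from IRI were -1.41 (Jiaji), -1.30 (Neiguan), -1.17 (Yanglingquan) and -0.69 (Quchi), each with an SE of 0.34, so Jiaji stood 2.66-fold lower. The size depends on the processing: Jiaji differed by -0.80 and Yanglingquan by -0.46 after normexp and quantile normalization, and Jiaji by -1.77 after quantile normalization alone. IRI was 0.43 ± 0.34 above sham.

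The other proteases did not go into the choice of Mcpt1, but they are no independent measure. Within groups their deviations correlated with those of Mcpt1 on the same arrays, with r = 0.85 (Cpa3), 0.85 (Cma1) and 0.67 (Tpsab1). Cma1 read 0.60, 0.88, 0.40 and 0.04 in IRI, -0.79, 0.45, -0.99 and -0.11 in Jiaji and -0.71, 0.48, -0.67 and 0.02 in Neiguan. These groups overlapped, and the differences from IRI, -0.84 ± 0.36 (Jiaji) and -0.70 ± 0.36 (Neiguan), did not pass (adjusted p = 0.151 and 0.275). For Yanglingquan and Quchi the Cma1 differences were -0.49 and -0.56 (adjusted p = 0.407 and 0.396). Against sham, Jiaji differed in Cma1 by -0.94 ± 0.36 (adjusted p = 0.0596); without sham replicate 3 the adjusted p was 0.0391, and without Jiaji replicate 2 it was 0.0184. In limma this difference was called under quantile normalization (adjusted p = 0.0474), median scaling (0.0123), the authors' values (0.0465), scan as a random block (0.0263) and array weights (0.0365). Of 25149 probes, quantile normalization called 4019 lower in this comparison and median scaling 8237, against 1466 in the main fit. In 7 of 13 such settings Cma1 stayed uncalled, with adjusted p up to 0.0948. Single-array omissions gained the call in 2 of 24 cases, with adjusted p up to 0.19.

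Cpa3 read -3.45, -3.33, -3.95 and -3.71 in IRI and -4.07, -4.38, -5.30 and -4.60 in Yanglingquan. Every Yanglingquan array was thus below every IRI array, yet the difference of -0.98 ± 0.35 did not pass (adjusted p = 0.0676). Without Neiguan replicate 2, whose spread enters the shared error, the same difference had an adjusted p of 0.0404. That was the only 1 of 24 single-array omissions to gain the call, and others gave an adjusted p up to 0.183. The difference also passed in limma with scan as a random block (adjusted p = 0.0277) and with only the arrays compared (0.0329). In 10 of 13 such settings it stayed uncalled, and over the 13 it shrank to as little as -0.33, with adjusted p up to 0.274. In the other acupoint groups Cpa3 differed from IRI by -0.35 (Jiaji), -0.31 (Neiguan) and -0.49 (Quchi), all with overlapping arrays and adjusted p of 0.452 to 0.652. Tpsab1 overlapped IRI in all 4 acupoint groups, with differences of -0.39 (Jiaji), -0.24 (Neiguan), 0.09 (Yanglingquan) and 0.31 (Quchi), an SE of 0.32 each and adjusted p of 0.492 to 0.886. Between IRI and sham the 3 genes differed by -0.10 (Cma1), -0.01 (Cpa3) and -0.24 (Tpsab1), with adjusted p of 0.744 to 0.991. No difference in these proteases between injured and sham hearts was resolved by this fit.

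Kit, the receptor for stem cell factor, is needed for mast cell survival and is also found on progenitor cells. Its levels in IRI were -3.72, -3.82, -3.21 and -3.22, and its group means spanned only -3.63 in Quchi to -3.21 in Jiaji. Against IRI the differences were 0.28 (Jiaji), -0.08 (Neiguan), -0.12 (Yanglingquan) and -0.14 (Quchi), each with an SE of 0.17 and adjusted p of 0.311 to 0.826. Against sham, Neiguan differed by -0.34 (adjusted p = 0.145), and without Neiguan replicate 2 the difference was -0.49 (adjusted p = 0.0313). Quchi lay 0.39 below sham (difference -0.39 ± 0.17, adjusted p = 0.0865), with no overlap of arrays, which held for 22.6% of all probes. In limma both were called under quantile normalization (Neiguan -0.49, adjusted p = 0.0181; Quchi -0.51, adjusted p = 0.0161), median scaling (0.0215 and 0.0288), normexp (0.0177 and 0.0157) and the authors' values (0.0176 and 0.0161), and Quchi also with scan as a random block (0.0469). Of 25149 probes, quantile normalization called 3972 lower in Neiguan and 3588 in Quchi against sham, and median scaling 5296 and 3255. Kit stayed uncalled in 9 of 13 such settings for Neiguan and in 8 of 13 for Quchi. Yanglingquan differed from sham by -0.38 ± 0.17 (limma adjusted p = 0.122), also with no overlap of arrays (19.1% of all probes). In bulk tissue, fewer mast cells and less RNA per mast cell cannot be told apart.

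**Figure D3:**
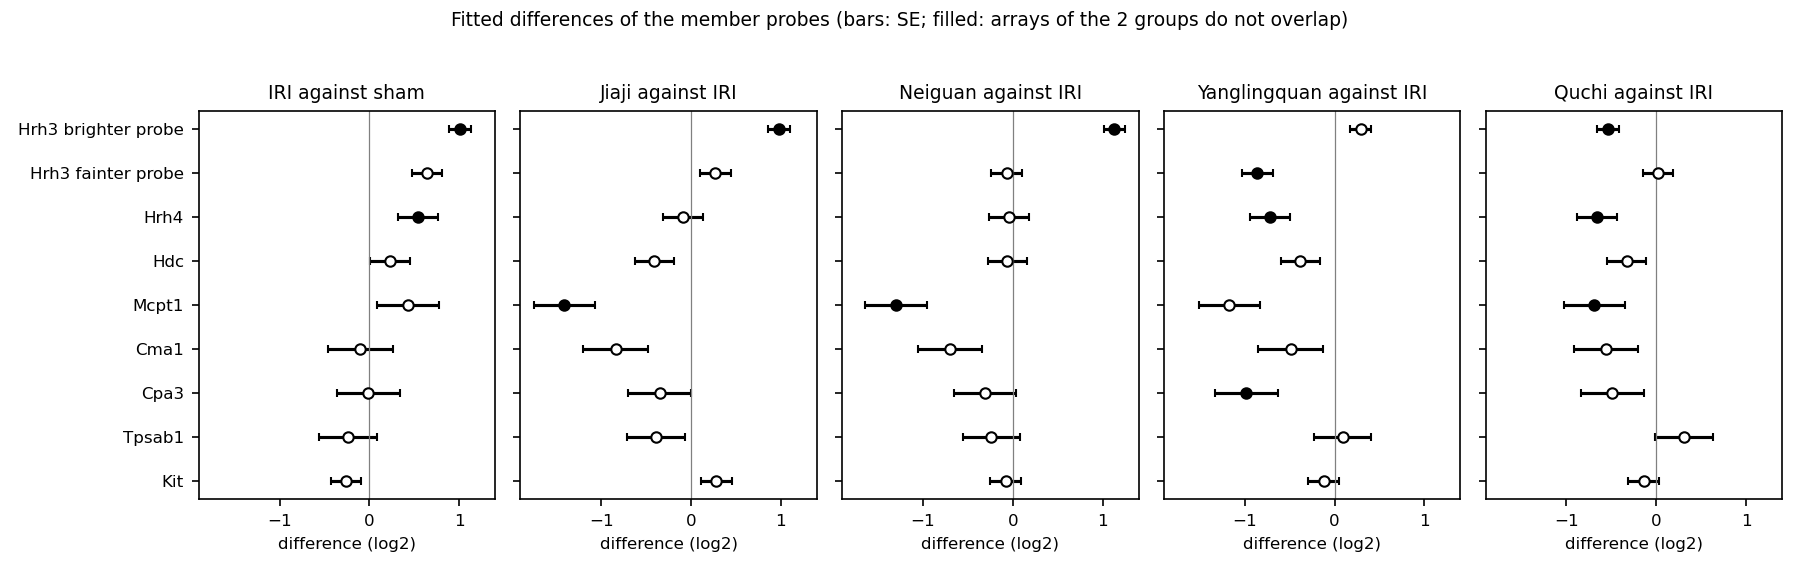
Fitted difference (log2) with SE bars for the 9 member probes that passed the filter, in IRI against sham and in each acupoint group against IRI (4 arrays per group); filled points mark comparisons in which the arrays of the groups do not overlap. Mcpt1 lies furthest below 0 in Jiaji and Neiguan, at -1.41 and -1.30, while Kit stays within 0.28 of 0 in the acupoint comparisons.

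Over the 9 probes tested, 2 were called in IRI against sham, both of Hrh3, where 8.62% of all probes were called. Against IRI, 2 were called in Jiaji (12.2% of all probes), 2 in Neiguan (7.42%), 3 in Yanglingquan (15% of all probes) and 1 in Quchi (4.64%). Against sham, 3 were called in Jiaji (28.2%), 2 in Neiguan (24% of all probes), 1 in Yanglingquan (17.3%) and 2 in Quchi (25.6%). Apart from Hrh4 in Yanglingquan against IRI, all of these calls belong to Hrh3 and Mcpt1, which the choice of genes followed, so nothing is read from the counts. The groups did not overlap for 2 of 9 probes in IRI against sham (15% of all probes), 2 in Jiaji (17.1%), 2 in Neiguan (16.5%), 3 in Yanglingquan (17.5%) and 3 in Quchi (9.97%) against IRI. Median differences over the 9 probes were 0.23 in IRI against sham, and -0.35 (Jiaji), -0.08 (Neiguan), -0.49 (Yanglingquan) and -0.49 (Quchi) against IRI, beside -0.06 to 0.03 over all probes.

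Between acupoint groups, the differences of the Hrh3 probes are not given, since their group levels chose the genes. Over all 9 probes, those of Hrh3 counted, limma called 0 apart between Jiaji and Neiguan (0.00398% of all probes). An unadjusted p under 0.05 was reached by 1 of 9, Kit. Hrh4 was 0.63 ± 0.22 higher in Jiaji and 0.68 ± 0.22 higher in Neiguan than in Yanglingquan (adjusted p = 0.0304 and 0.0287), comparisons in which 32.8% and 23.6% of all probes were called.

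Sex was balanced in every group and played no part in the choice of genes. Females and males differed in 0 of 9 probes by limma (0.171% of all probes were called), and 1 of 9 had an unadjusted p under 0.05. That was the brighter Hrh3 probe, 0.22 lower in females (difference -0.22 ± 0.07, adjusted p = 0.219). Sham hearts split by sex in the protease genes. The sham males read -2.90 and -2.70 for Cpa3 and the sham females -4.49 and -4.30. For Mcpt1 they read -3.57 and -3.29 against -4.77 and -4.43, and for Cma1 1.23 and 0.95 against -0.01 and 0.13. The IRI group showed no such split in Cpa3, with -3.58 in males and -3.64 in females on average. In Yanglingquan females differed from males by -0.72 (Cpa3), -0.75 (Cma1) and -0.88 (Mcpt1), so a split was not particular to sham. In Neiguan these differences went the other way, at 0.78, 0.94 and 0.58, and in Jiaji and Quchi they lay between -0.28 and 0.35. The difference of the injury effect between sexes was 1.54 for Cpa3 and did not pass in limma (adjusted p = 0.556). Of 45 such interactions over probes and comparisons 0 passed and 5 had an unadjusted p under 0.05.

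Groups accounted for 24.6 (Tpsab1) to 53.1% (Mcpt1) of the variance of the 4 protease probes, and within groups the arrays differed together. After group and sex were removed, the deviations of Cpa3 and Cma1 over the 24 arrays correlated with r = 0.90 (rho = 0.92). Their permutation p of 1e-05, with arrays permuted within groups, is the smallest that 100000 resamples can give (adjusted p = 0.00014 over 21 pairs). Cpa3 and Mcpt1 correlated with r = 0.85 (rho = 0.84, permutation p = 2e-05, adjusted p = 0.00014), and Tpsab1 and Hdc with r = 0.80 (rho = 0.85, permutation p = 4e-05, adjusted p = 0.00021). All 10 pairs among Cpa3, Cma1, Mcpt1, Tpsab1 and Hdc passed, with r from 0.54 to 0.90 and adjusted permutation p up to 0.0426. Without the 2 arrays farthest from the median, r ran from 0.51 to 0.92. The weaker pairs lost their call when a group was left out: Cpa3 with Hdc without IRI, Jiaji, Neiguan or Yanglingquan, Mcpt1 with Hdc without IRI, Jiaji or Yanglingquan, and Mcpt1 with Tpsab1 without Neiguan.

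The shared deviation can be seen on single arrays. Neiguan replicate 2 was the highest Neiguan array for Mcpt1 (-3.99), Cma1 (0.48), Cpa3 (-3.09) and Tpsab1 (-1.63). Jiaji replicate 3 was the lowest Jiaji array for Mcpt1 (-5.65), Cma1 (-0.99), Cpa3 (-4.36) and Tpsab1 (-2.69). Yanglingquan replicate 3 was likewise the lowest of its group for those 4 genes and for Hdc. The mean deviation of the 5 genes ran from -0.58 in sham replicate 3 to 0.71 in Neiguan replicate 2.

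**Figure D4:**
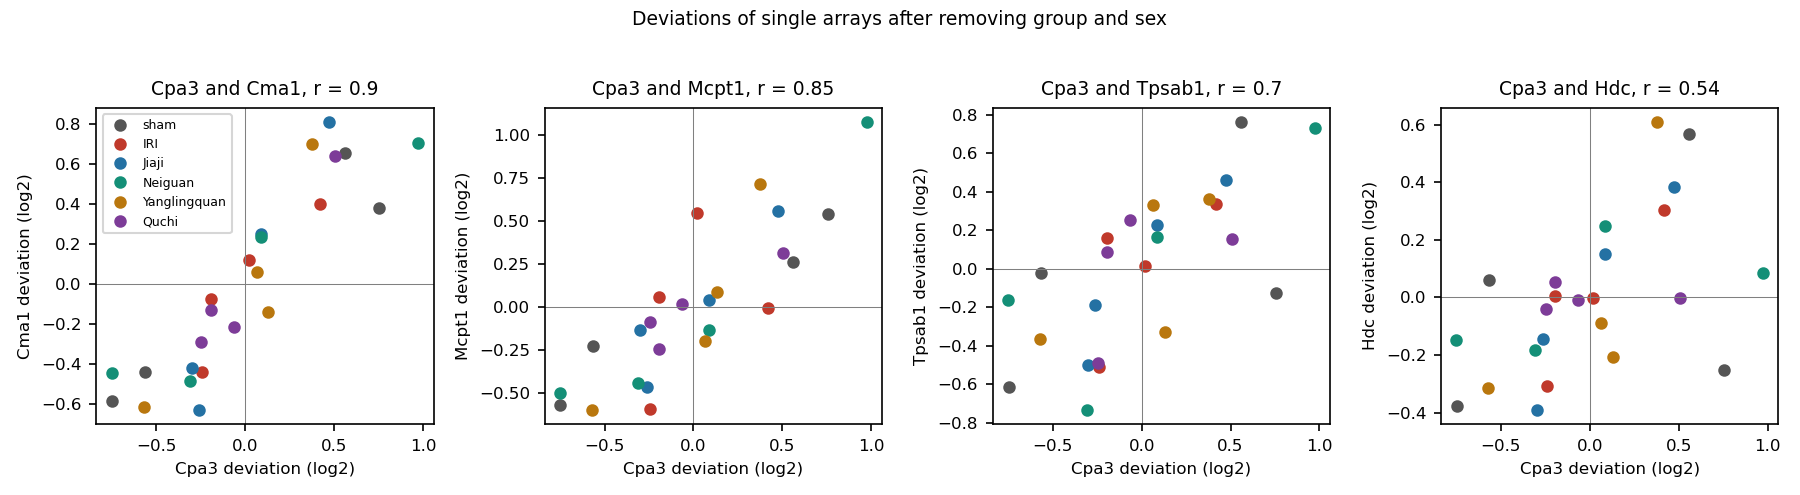
Deviation of Cma1, Mcpt1, Tpsab1 and Hdc (vertical, log2) against that of Cpa3 (horizontal, log2) on the 24 arrays after group and sex were removed, coloured by group, with Pearson r above each panel. The points rise together in every panel, most tightly for Cma1 (r = 0.90) and least for Hdc (r = 0.54).

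No pair with Kit or Hrh3 passed. Of the 6 pairs with Kit, 0 passed the permutation test (r from -0.27 to 0.17, lowest adjusted p = 0.453), although Neiguan replicate 2 was the highest Neiguan array for Kit as well, at -3.14. Of the 6 pairs with the brighter Hrh3 probe, 0 passed (r from -0.22 to 0.19, lowest adjusted p = 0.609). The lowest unadjusted permutation p over these pairs was 0.238, for Kit with Hdc. Whether these correlations are smaller than those among the proteases was not tested.

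Other mast cell genes were set beside the mean deviation of the 5 genes, as a description with no p. Ms4a2, the beta chain of the high-affinity IgE receptor, had r = 0.91 over the 24 arrays, and its alpha chain Fcer1a r = 0.71. Further proteases of the chromosome 15 cluster followed, with r = 0.76 for Mcpt8, 0.74 for Mcpt10, 0.70 for Mcpt9 and 0.60 for Mcpt8l2, and the tryptase Tpsb2 had r = 0.58. The granule proteoglycan gene Srgn had r = 0.35, the vesicle gene Vamp8 r = 0.32 and the prostaglandin D synthase gene Hpgds r = 0.18. Ndst2 and Cd63, which many cell types express, were at 0.04 and -0.09. Mean levels of markers of 9 other cell classes had r between -0.25 (fibroblast) and 0.45 (lymphocyte). The share of probes well above background had r = 0.23, and the 75th percentile of the array r = 0.03. In permutation tests over these 11 measures the lymphocyte markers had p = 0.0461 (adjusted p = 0.507), and the others an adjusted p of 0.986. Beyond these correlations, their part in the shared variation was not tested.

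Over the levels of all 24 arrays, groups included, the genes most like Mcpt1 among 12893 were Ajap1 (r = 0.83), Cma1 (r = 0.82) and Mcpt8 (r = 0.81). Cpa3 ranked 12 (r = 0.74), Tpsab1 ranked 87 (r = 0.64) and Hdc ranked 343 (r = 0.55), while Kit had r = 0.09 and Hrh3 r = -0.47. Ajap1, an adherens junction associated protein gene, averaged -4.98 ± 0.30 (SD, n = 4) in Jiaji and -4.02 ± 0.52 in IRI.

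As a check of the cell type, 10 of 11 mast cell markers passed the filter. Kit, Cpa3, Tpsab1, Tpsb2, Cma1, Mcpt1, Hdc and Hpgds were well above background on all 24 arrays, Ms4a2 on 20 and the brighter Fcer1a probe on 23. Mcpt4 was well above background on 7 and did not pass. The mean over the passing markers ranged from -3.39 to -2.51 in sham, -3.22 to -2.80 in IRI, -3.79 to -3.20 in Jiaji, -3.65 to -2.90 in Neiguan, -4.07 to -3.06 in Yanglingquan and -3.55 to -3.07 in Quchi, so these ranges overlap throughout. Mcpt1 is left out of the counts that follow, though Cpa3, Cma1, Tpsab1 and Hdc varied with it within groups. Of the other 9 markers limma called 0 higher and 0 lower in IRI against sham and in Jiaji, Neiguan and Quchi against IRI, where 1.3%, 1.69%, 1.45% and 1.49% of all probes were called lower. An unadjusted p under 0.05 was reached there by 1, 2, 1 and 0 of them. In Yanglingquan 1 of 9, Ms4a2, fell against IRI, where 10% of all probes were called lower. Their medians against IRI were -0.41 (Jiaji), -0.24 (Neiguan), -0.49 (Yanglingquan) and -0.29 (Quchi), beside -0.05 to 0.02 over all genes. Against sham 2 of 9 fell in Jiaji, Hpgds (-1.05 ± 0.25, adjusted p = 0.00372) and Ms4a2 (-1.09 ± 0.37, adjusted p = 0.0325), where 5.83% of all probes were called lower. In Yanglingquan 3 of 9 fell against sham, Hpgds, Ms4a2 and Fcer1a, by 1.32, 1.73 and 1.29 (adjusted p = 0.00134, 0.00309 and 0.023; 8.85% of all probes). In Neiguan and Quchi against sham 0 of 9 were called (7.5% and 9.57% of all probes called lower), and 3 and 1 had an unadjusted p under 0.05. The medians against sham were -0.63 (Jiaji), -0.48 (Neiguan), -0.59 (Yanglingquan) and -0.41 (Quchi), beside -0.10 to 0.04 over all genes. Basophils share several of these genes: 3 of 6 basophil markers fell in Yanglingquan against IRI (Ms4a2, Prss34 and Il4), beside the 10% of all probes called lower there, and limma called 0 in the other acupoint groups (2, 2 and 0 had an unadjusted p under 0.05 in Jiaji, Neiguan and Quchi). The Il4 probe was well above background on 19 of 24 arrays and the Ms4a2 probe on 20, so dim readings may enter their falls. The part of dim readings and of basophils in the result was not tested.

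The counts below can be read against the probes called higher in each comparison, 7.32% in IRI against sham and 10.5% (Jiaji), 5.97% (Neiguan), 4.92% (Yanglingquan) and 3.15% (Quchi) against IRI, and against the shares called lower given above.

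Histamine is cleared by uptake and by methylation or oxidation. Of 7 tested genes of transport and breakdown, 2 rose in IRI against sham (7.32% of all probes), Slc22a2 by 0.71 ± 0.19 (adjusted p = 0.0223) and Slc29a4 by 0.35 ± 0.11 (adjusted p = 0.0466). They encode the organic cation transporter OCT2 and the monoamine transporter PMAT. Both rose further in Jiaji against IRI, by 0.73 ± 0.19 and 0.33 ± 0.11 (adjusted p = 0.0136 and 0.0477), and Slc29a4 fell in Yanglingquan by 0.35 ± 0.11 (adjusted p = 0.0312). The other Slc29a4 probe rose in IRI too (0.98, adjusted p = 0.00702) but was not called in the acupoint groups. The list's median was -0.08 in IRI against sham and -0.24 to 0.13 against IRI, beside -0.05 to 0.02 over all genes.

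Among 13 tested genes of histamine receptor signalling, limma called 0 in IRI against sham and 0 in Neiguan against IRI, where 3 and 2 had an unadjusted p under 0.05. Plcb1, a phospholipase C of the H1 pathway, fell in Jiaji by 0.65 ± 0.21 and in Yanglingquan by 0.94 ± 0.21 (adjusted p = 0.0474 and 0.00464), while its other probe differed by -0.15 and -0.49 without a call. Gnas, the stimulatory G protein subunit used by H2 receptors, rose in Yanglingquan by 0.75 ± 0.15 (adjusted p = 0.00225), but its other probe differed by -0.08. Gnai1, an inhibitory subunit of the kind that H3 and H4 receptors use, fell in Quchi by 1.07 ± 0.24 (adjusted p = 0.0131). The list's median was -0.05 in IRI against sham and -0.02 to 0.04 in the acupoint comparisons.

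Of 18 tested genes of the IgE receptor and mast cell activation, Ms4a2 fell in Yanglingquan by 1.59 ± 0.37 (adjusted p = 0.00634), and Mrgprx2, a receptor for basic secretagogues, by 1.11 ± 0.31 (adjusted p = 0.0184). Lyn, a kinase of the IgE receptor, fell in Quchi by 0.71 ± 0.18 (adjusted p = 0.0288). Syk rose in Jiaji by 1.04 ± 0.23 (adjusted p = 0.00389) on 1 probe and differed by -0.37 on the other. The list's median was -0.44 in Yanglingquan and -0.30 in Quchi against IRI, and -0.11 and -0.10 in Jiaji and Neiguan.

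For Kit ligand and mast cell differentiation, 13 genes were tested and limma called 0 in IRI against sham, where 1 had an unadjusted p under 0.05; 4 of 13 fell in Yanglingquan against IRI, where 10% of all probes were called lower, and the list's median there was -0.17. Kitlg, which encodes stem cell factor, had probes that disagreed. Its brightest probe fell in Jiaji by 0.48 ± 0.12, in Neiguan by 0.49 ± 0.12 and in Yanglingquan by 0.45 ± 0.15 (adjusted p = 0.0113, 0.0142 and 0.0429; a Yanglingquan array without a value is left out of that fit). A second probe rose by 1.11 in Jiaji and 0.78 in Neiguan (adjusted p = 8e-04 and 0.0201), so no direction is given for the gene. Csf2rb, the common beta chain of the interleukin 3 receptor, rose in Jiaji by 0.67 ± 0.20 and in Neiguan by 0.73 ± 0.20 (adjusted p = 0.035 and 0.0306). Also in Yanglingquan the cytokine gene Il4 fell by 1.29 ± 0.39 (adjusted p = 0.029) and Il3ra by 0.63 ± 0.20 (adjusted p = 0.0395), while the other Il3ra probe differed by 0.35.

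Of 9 tested genes of mast cell lipid mediators, the prostaglandin D2 receptor gene Ptgdr rose in IRI against sham by 0.42 ± 0.10 (adjusted p = 0.00928) and fell in Yanglingquan against IRI by 0.41 ± 0.10 (adjusted p = 0.00701). Its other probe differed by 0.19 and 0.40 in those comparisons. Ltc4s, leukotriene C4 synthase, rose in Jiaji by 0.84 ± 0.23 (adjusted p = 0.0187). Of 9 tested further granule genes, 0 were called by limma in IRI against sham or in an acupoint group against IRI, with list medians of -0.24 to -0.08. An unadjusted p under 0.05 was reached by 0 of them in IRI against sham and by 2 (Jiaji), 2 (Neiguan), 3 (Yanglingquan) and 2 (Quchi) against IRI.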

How the data were processed

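Levels came from each spot's intensity, already background-subtracted and detrended by Feature Extraction (version 11.0.1.1 per the file headers, 10.7.3.1 per the submitters' processing notes). The authors' deposited log2 table served as an alternative; its columns have a common median of 7.21 and equal quartiles, so it was taken as quantile normalized. The spot flags (other values) are those of Feature Extraction, per the file headers. Control spots (1377 per array) and outlier spots (8733 in all) were left out, spots of a probe were averaged, and 18005 of 30367 probes were named through RefSeq.

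The comparisons used limma 3.58.1 in R 4.3.3 (lmFit and eBayes, group and sex, 24 arrays, 17 residual degrees of freedom, two-sided, Benjamini-Hochberg over 25149 probes), tested on simulated data. Members and gene lists were chosen with earlier results of these data known. All member probes are named; of the pathway lists, at most 3 called genes of smallest p per list and comparison, on the brightest probe. P-values measure the spread between arrays taken as separate rats. No mean-signal column was used for the normexp alternative, which took median signals. The number of arrays limits the precision.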

Additional observations from a re-analysis of the deposited data

Results flagged for a closer look

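In groups of 4 arrays, a single array standing far from the other 3 was looked for in 60 probe-and-group sets (Dixon's ratio of gap to range, 95% limit), and 2 were found. Chance alone gives about 1 in 20, which is more than were found. In Neiguan, replicate 2 stood at -3.99 for Mcpt1 while the other 3 arrays lay between -5.21 and -5.14, a ratio of 0.943. In IRI, replicate 1 stood at 0.89 for Hrh4 while the others lay between 0.59 and 0.64, a ratio of 0.833.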

How the results depend on the processing

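No called value changed sign under the alternatives run. Many of these values are of Hrh3 and Mcpt1, whose group levels chose the genes. Neither the tallies nor the counts below are read as support for their differences. Of 1155 recomputed values for 45 single probes, pairs and probe gaps, 1046 kept direction and side of the threshold, 54 lost a call, 51 gained one and 4 moved by more than the spread between arrays. The 4 are the Hrh3 probe gap of Jiaji (7.44 under quantile normalization and the authors' values) and Yanglingquan (7.09 and 7.08). Hrh4 in Yanglingquan against IRI also lost its call under median scaling (adjusted p = 0.0954) and with only the compared arrays (0.0522). Calls over all 25149 probes moved with the scaling as well. Neiguan against sham had 3686 higher and 3972 lower under quantile normalization, against 4152 and 1887 in the main fit. Jiaji against sham had 3921 and 8237 under median scaling, against 5615 and 1466. Nothing is therefore read from the member counts. Counts of called member probes moved as follows, and causes were not tested. IRI against sham had 1 under normexp and, with the fainter Hrh3 probe not tested, under the filter on all arrays and with 1 probe per gene. Neiguan against IRI had 1, Quchi against IRI 0, Quchi against sham 0 and Yanglingquan against sham 2 with only the compared arrays. Scan as a random block and array weights gave 2 for Quchi against IRI and 4 for Neiguan against sham; array weights and median scaling gave 5 for Jiaji against sham. Neiguan against sham had 4 under quantile normalization, median scaling, normexp and the authors' values, and 1, like Quchi against sham, under the filter on all arrays and with 1 probe per gene. Yanglingquan against sham had 2 with scan as a random block. The replicate block gave 2 for Yanglingquan against sham and moved no other count by over 1.5 times; with it limma also called Cpa3 in Yanglingquan against IRI (adjusted p = 0.0326) and Cma1 in Jiaji against sham (0.0425); the numbers do not pair animals, since same-numbered arrays did not deviate together (60 pairs, median r 0.04) and 9 of 24 arrays were closest to their own number. Leaving out single arrays gave 1 to 2 (IRI against sham), 2 to 2 (Jiaji), 1 to 2 (Neiguan), 1 to 4 (Yanglingquan) and 0 to 2 (Quchi) against IRI, 2 to 4, 1 to 4, 1 to 2 and 2 to 2 against sham, 0 to 0 by sex and 3 to 4 in the F test, Hrh3 included. Dim probes (Hrh1, the fainter Hrh3 probe in Yanglingquan) and 4 arrays per group limit what can be resolved.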

Other observations

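Among all named genes, those whose deviations within groups were most like the mean of Cpa3, Cma1, Mcpt1, Tpsab1 and Hdc were, after Cma1 (r = 0.97) and Cpa3 (r = 0.92), Ms4a2 (r = 0.91), Mcpt1 (r = 0.90), Tpsab1 (r = 0.88), Tph1 (r = 0.85), Plac8 (r = 0.80) and Klra17 (r = 0.79). Cma1, Cpa3, Mcpt1 and Tpsab1 are part of the mean they are set against. Tph1 encodes the tryptophan hydroxylase that makes serotonin outside the brain, and rodent mast cells are known to store serotonin beside histamine. Tph1, Plac8 and Klra17 were chosen after their values were seen, and no p is given.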
